A study of Rattus norvegicus with 8 samples.

Results

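The microglia genes described here are 10 genes chosen by name: Cx3cr1, Aif1, Csf1r, P2ry12, Tmem119, C1qa, C1qb, C1qc, Cd68 and Trem2. Members were found by gene symbol. Of the 10 genes, 9 were found among the 18003 gene symbols, with 20 of the 98356 polyadenylation sites, while Cd68, the gene of a lysosomal glycoprotein of phagocytes, matched no site and is not analysed here. Each gene was followed through its total, the sum over all its sites in a library, and through its single sites.

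The libraries came from the hypothalamus of adult male Long-Evans rats, taken 1 hr after a 10 min exposure. The 4 cannabis-exposed rats (replicates 1, 2, 3 and 5) breathed vapor of cannabis plant matter holding 7.8% THC and 0.5% CBD. The 4 air-treated controls (replicates 1, 2, 3 and 4) went through the same procedure without plant matter in the vaporizer, and each library is 1 rat. The RNA was sequenced from its 3′ ends by WTTS-Seq (whole transcriptome termini site sequencing), in which 1 read marks 1 transcript end, so that counts are not scaled by transcript length. The values are normalized counts, that is, the reads of a site over the size factor that the authors gave each library.

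Microglia are the resident macrophages of the brain. They survive through signals at the receptor Csf1r, survey the tissue with purinergic and chemokine receptors, and make most of the C1q that starts the classical complement cascade. In acute inflammation microglia are known to lower P2ry12 and Tmem119, and around damaged tissue to engage Trem2, so these genes are widely used to tell apart resting and reactive states.

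The 8 libraries held 1159811 to 3706778 reads on sites, fewest in control 4, where 26.1% of sites had no read against 3.32% to 17.0% in the others. A read was worth 0.664 to 1.99 normalized counts, and 3 reads, the smallest count read as a level here, 1.99 to 5.96. The dissection was bulk tissue, so fewer microglia and less RNA per microglial cell cannot be told apart in any value below.

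None of the 9 microglia genes passed the limma test between cannabis-exposed and air-treated rats, at 1 hr after exposure. With P under 0.05, 0 of 9 gene totals were called, against 2.41% of all symbols, and every adjusted P (Benjamini-Hochberg) was 0.999. By edgeR and by DESeq2 the count at the same P was also 0 of 9, against 454 of 18003 and 392 of 17977 symbols. In 0 of 9 genes did all cannabis values lie on one side of all control values, which was so for 1.98% of all symbols. The fold changes of 4 genes were above 0 and of 5 below, with a median log2 fold change of -0.10 against 0.05 over all symbols. The 95% confidence intervals of the 9 genes together spanned log2 fold changes from -1.91 to 1.52, so moderate differences in either direction remained within the error.

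Summed over the 9 genes, the microglia counts were 691.6, 842.8, 724.4 and 913.5 in controls 1 to 4 and 863.1, 817.7, 717.4 and 784.2 in cannabis rats 1, 2, 3 and 5. The means were 793 ± 103 and 796 ± 61.4 normalized counts (SD, n = 4 each), and every cannabis value lay inside the control range. Behind these sums stood 460 to 1231 reads per library. Leaving out C1qa, whose variance was the highest relative to counting, the means were 739 ± 115 in controls and 702 ± 61.8 in cannabis rats.

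**Figure D1:**
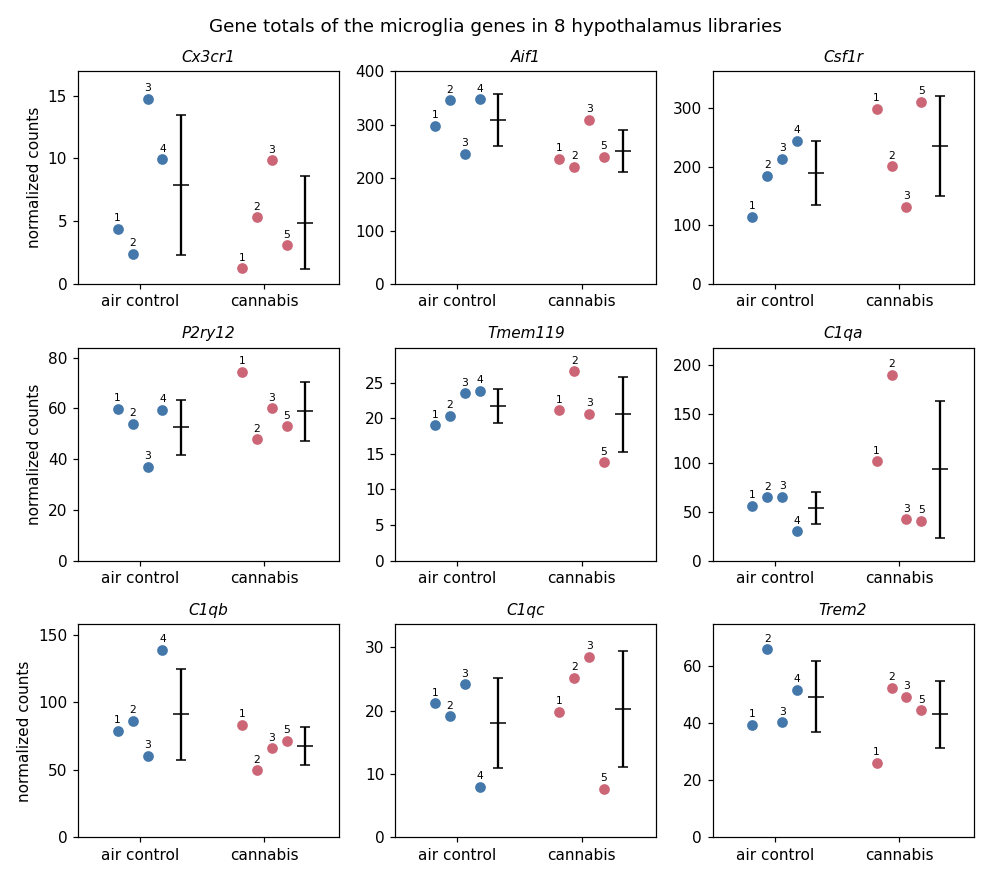
Gene totals of the 9 microglia genes in each library, in normalized counts, with air-treated controls in blue and cannabis-exposed rats in red. Numbers are replicate numbers and bars give the mean ± SD of 4 libraries. The groups overlap in every panel, and Aif1 comes closest to a separation, with 3 of 4 cannabis values below the lowest control.

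By level the order was Aif1, Csf1r, C1qb, C1qa, P2ry12, Trem2, Tmem119, C1qc and Cx3cr1. Over all 8 libraries Aif1 averaged 280.0 ± 51.4 normalized counts and was higher than 92.8% of symbols, while Cx3cr1 averaged 6.37 ± 4.68 and was higher than only 24.1%. Sites without a symbol (34.6% of sites, 13.9% of reads) entered no total, so a low total need not mean low expression. Clear steps in this order lay between Csf1r (213 ± 71.0) and C1qb (79.4 ± 27.0) and between Trem2 (46.2 ± 11.7) and Tmem119 (21.1 ± 3.80), where the first was above the second in 8 of 8 libraries. C1qc was above Cx3cr1 in 7 of 8 libraries and Aif1 above Csf1r in 6 of 8. C1qb and C1qa, C1qa and P2ry12, P2ry12 and Trem2, and Tmem119 and C1qc did not differ beyond their spread, with the first above the second in 4 or 5 of 8 libraries.

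Csf1r is the receptor for colony-stimulating factor 1 and interleukin 34, on which microglia depend to survive. Its totals were 114.8, 184.4, 214.2 and 244.3 in controls 1 to 4 and 299.3, 200.6, 131.9 and 311.1 in cannabis rats 1, 2, 3 and 5. Cannabis rats 1 and 5 were above every control, but cannabis rat 3 was below 3 of the 4 controls. The means were 189 ± 55.4 and 236 ± 85.1 (SD, n = 4 each), a log2 fold change of 0.29 ± 0.31 (SE) with a confidence interval from -0.37 to 0.95 (limma P = 0.365, exact permutation P = 0.457). Without control 1 the log2 fold change was 0.0657 and without cannabis rat 3 it was 0.54. The scatter was large for a gene of this depth: the variance within groups was 25.7 times what counting reads alone gives, above that of 82.7% of the 2735 symbols within 2-fold of its mean.

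The ligands of Csf1r, named here after their values were seen, were measured too. Il34, the main ligand from neurons, had 140 normalized counts in controls and 160 in cannabis rats (log2 fold change 0.19, exact permutation P = 0.457). Csf1 had 50.7 and 44.3 (log2 fold change -0.24, exact permutation P = 0.514). Neither passed the limma test.

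Cx3cr1 is the receptor for fractalkine, through which neurons signal to microglia. It had the fewest reads of the members, from 1 to 22 per library. Its totals were 4.39, 2.39, 14.8 and 9.93 in controls and 1.24, 5.31, 9.84 and 3.07 in cannabis rats, so that control 2 and cannabis rat 1 were below the value of 3 reads in their libraries. The log2 fold change was -0.58 ± 0.62 (SE), with the widest interval of the 9 genes, from -1.91 to 0.74 (limma P = 0.361, exact permutation P = 0.429). It was -0.20 without cannabis rat 1 and -0.96 without control 2. Its variance within groups was 3.62 times that of counting, above that of 83.6% of the 4510 symbols within 2-fold of its mean. At this depth and scatter a change of Cx3cr1 to as little as 0.266-fold or as much as 1.68-fold was within its interval. Cx3cl1, the gene of fractalkine itself and also named after its value was seen, had 28.7 normalized counts in controls and 25.9 in cannabis rats (log2 fold change -0.16, exact permutation P = 0.400).

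P2ry12 is the ADP receptor that steers microglial processes toward damage, and it is among the genes most selective for microglia in brain. Its totals were 59.9, 53.9, 36.9 and 59.6 in controls and 74.5, 47.8, 60.0 and 53.0 in cannabis rats. All but control 3 and cannabis rat 1 lay within a narrow band from 47.8 to 60.0. The means were 52.6 ± 10.8 and 58.8 ± 11.6, with a log2 fold change of 0.17 ± 0.26 (SE) and a confidence interval from -0.40 to 0.73 (limma P = 0.539, exact permutation P = 0.543). Without control 3 the log2 fold change was 0.00756, without cannabis rat 1 it was 0.0469 and without cannabis rat 2 it was 0.26.

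Tmem119, a membrane protein of unsettled function that separates microglia from other macrophages, had the lowest variance relative to counting of the 9 genes. Its totals were 19.01, 20.4, 23.5 and 23.8 in controls and 21.1, 26.6, 20.7 and 13.8 in cannabis rats. The means were 21.7 ± 2.37 and 20.5 ± 5.22, with a log2 fold change of -0.10 ± 0.31 (SE) and a confidence interval from -0.78 to 0.57 (limma P = 0.750, exact permutation P = 0.714). Its variance within groups was 1.05 times that of counting, close to the counting error alone, and only 10.3% of the 5172 symbols of like level had less. The 2 genes that microglia lower on activation therefore had point estimates of opposite sign, each within its error.

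**Figure D2:**
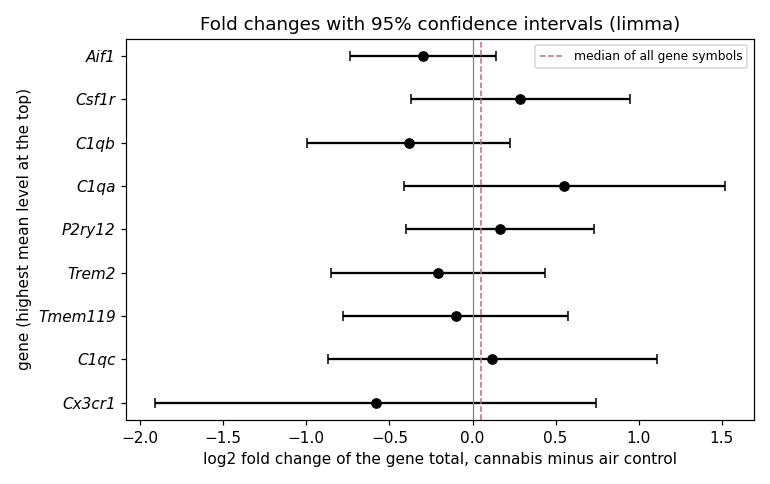
Log2 fold change of each microglia gene total, cannabis minus air control, with its 95% confidence interval from limma, in order of mean level. The solid line marks 0 and the dashed line the median of all gene symbols at 0.05. Every interval crosses 0, and the intervals run from -1.91 (Cx3cr1) to 1.52 (C1qa).

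Aif1 encodes Iba1, the calcium-binding protein whose antibody is the common stain for microglia. Its totals were 297.5, 346.0, 245.1 and 347.5 in controls 1 to 4 and 235.9, 219.9, 309.0 and 238.9 in cannabis rats 1, 2, 3 and 5. Cannabis rats 1, 2 and 5 lay below the lowest control, whereas cannabis rat 3 exceeded 2 of the 4 controls. The means were 309 ± 48.6 and 251 ± 39.6, with a log2 fold change of -0.30 ± 0.20 (SE) and a confidence interval from -0.74 to 0.14 (limma P = 0.167, exact permutation P = 0.114). Of the 9 genes, this was the smallest P in both tests. Without cannabis rat 3 the groups did not overlap, as was then so for 4.49% of all symbols, and limma P was 0.0855.

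Aif1 and Csf1r together made up 62.7% ± 2.19 of the microglia counts in controls and 61.3% ± 7.66 in cannabis rats. The ratio of Csf1r to Aif1 was 0.386, 0.533, 0.874 and 0.703 in controls and 1.27, 0.912, 0.427 and 1.30 in cannabis rats. Thus Csf1r was above Aif1 only in cannabis rats 1 and 5, and cannabis rat 3 lay near the lowest control.

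Trem2 is the lipid-sensing receptor that signals through Tyrobp and is engaged when microglia take up debris. Its totals were 39.5, 65.8, 40.3 and 51.6 in controls and 26.1, 52.5, 49.2 and 44.5 in cannabis rats. Cannabis rat 1 was the lowest and control 2 the highest, and the other 6 libraries lay between. The log2 fold change was -0.21 ± 0.30 (SE), with a confidence interval from -0.85 to 0.44 (limma P = 0.4997, exact permutation P = 0.543). Tyrobp, its adaptor, likewise named after its value was seen, had 61.4 normalized counts in controls and 64.0 in cannabis rats (log2 fold change 0.01, exact permutation P = 0.971). Apoe, a lipid carrier that binds Trem2 and comes mainly from astrocytes, had 24348 ± 3207 and 22668 ± 1917 (log2 fold change -0.10, exact permutation P = 0.429).

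C1qa, C1qb and C1qc encode the A, B and C chains that join in equal numbers to form C1q, the recognition part of complement component 1. In the RefSeq annotation of the rat the genes are direct neighbours, in the order C1qb, C1qc and C1qa. Promoters of C1qb and C1qa are shown because these neighbours, whose products join in 1 protein, had unlike values across the 8 libraries. Their ratio was most extreme in control 4 and cannabis rat 2, where some genes of other cells were at their extremes too. Aqp4 of astrocytes was lowest in control 4 (95.3) and highest in cannabis rat 2 (508), and neuronal Rbfox3 the reverse (415 and 79.0). Both were named after their values were seen, and symbols with this pattern were not counted. Whether the unlike values are particular to C1q was not tested. Each sequence runs 5′ to 3′ from 250 bases before to 50 bases after the start, on the minus strand of the RefSeq assembly GRCr8, and C1qc had no entry in the table used. Capitals mark the purine-rich letters GAGGAA or GGAAGT on either strand, the kind of core bound by Spi1 (PU.1), the factor that sets the macrophage lineage.
C1qb, chr5:154407778-154408077: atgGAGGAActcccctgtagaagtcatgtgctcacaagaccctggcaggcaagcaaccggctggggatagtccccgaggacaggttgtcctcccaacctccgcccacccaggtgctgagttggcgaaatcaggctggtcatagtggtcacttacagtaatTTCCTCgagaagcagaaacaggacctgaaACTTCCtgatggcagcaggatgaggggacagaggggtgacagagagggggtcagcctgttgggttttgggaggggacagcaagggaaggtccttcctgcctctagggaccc
C1qa, chr5:154419884-154420183: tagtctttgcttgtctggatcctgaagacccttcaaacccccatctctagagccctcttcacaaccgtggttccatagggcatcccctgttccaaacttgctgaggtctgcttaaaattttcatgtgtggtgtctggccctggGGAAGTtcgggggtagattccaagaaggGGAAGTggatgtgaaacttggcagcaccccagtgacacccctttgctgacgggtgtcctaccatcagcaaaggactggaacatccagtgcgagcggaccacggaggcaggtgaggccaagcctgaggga

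The C1qb window held GAGGAA once on each strand and GGAAGT once on the reverse strand, and the C1qa window held GGAAGT 2 times on the forward strand and no GAGGAA. Such short words are common. Of the 33469 promoters in the table, 27.6% held GAGGAA and 22.6% GGAAGT on either strand, and 42.3% held at least 1 of them. A match is a description of the letters, and binding was not measured here.

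C1qa had the highest variance relative to counting of the 9 genes. Its totals were 56.3, 64.6, 65.1 and 29.8 in controls 1 to 4 and 101.8, 190.0, 42.3 and 40.7 in cannabis rats 1, 2, 3 and 5. Cannabis rats 1 and 2 were above every control, and cannabis rats 3 and 5 were below 3 of the 4 controls. The means were 54.0 ± 16.6 and 93.7 ± 70.2, with a log2 fold change of 0.55 ± 0.45 (SE) and a confidence interval from -0.41 to 1.52 (limma P = 0.239, exact permutation P = 0.400). The value of cannabis rat 2 rested on 286 reads, and without that rat the log2 fold change was 0.12, while without cannabis rat 5 it was 0.85. The variance of C1qa within groups was 34.99 times that of counting, above 98.0% of the 4703 symbols within 2-fold of its mean, whose median was 5.06.

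C1qb had the opposite sign. Its totals were 79.0, 86.2, 60.4 and 139 in controls and 83.2, 49.8, 65.9 and 71.4 in cannabis rats. Control 4, the library with the fewest reads, was the highest, and the other 7 lay between 49.8 and 86.2. The means were 91.1 ± 33.7 and 67.6 ± 13.9, with a log2 fold change of -0.38 ± 0.28 (SE) and a confidence interval from -0.99 to 0.23 (limma P = 0.200, exact permutation P = 0.257). Without control 4 the log2 fold change was -0.16, and without control 3 it was -0.56.

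C1qc was the lowest of the chains. Its totals were 21.2, 19.2, 24.2 and 7.94 in controls and 19.9, 25.2, 28.5 and 7.68 in cannabis rats. Each group had 1 library near 8, control 4 with 4 reads and cannabis rat 5 with 10 reads. The log2 fold change was 0.12 ± 0.46 (SE), with a confidence interval from -0.87 to 1.11 (limma P = 0.798, exact permutation P = 0.657).

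**Figure D3:**
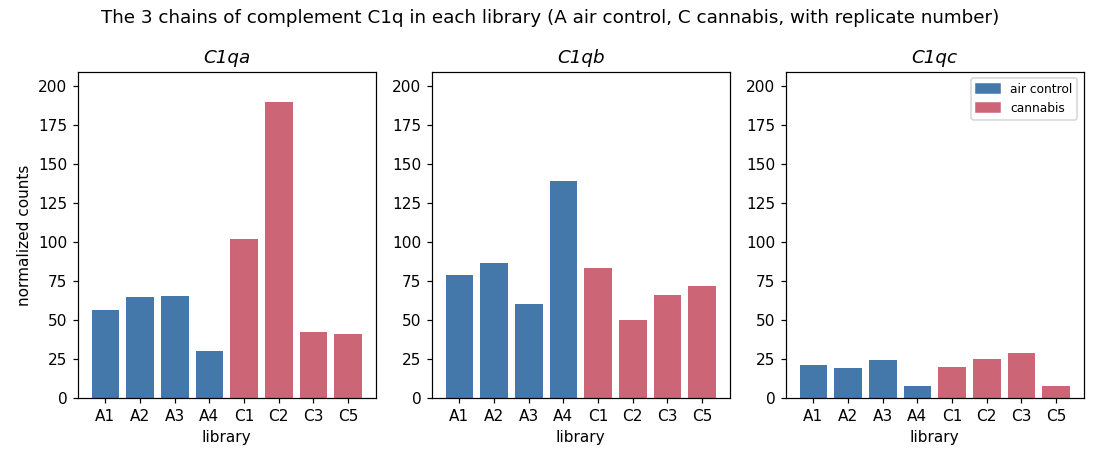
Normalized counts of C1qa, C1qb and C1qc in each library on 1 shared scale, with controls (A) in blue and cannabis rats (C) in red, numbered by replicate. C1qa is highest in cannabis rat 2 at 190.0, where C1qb is lowest at 49.8, and C1qb is highest in control 4 at 139, where C1qa is lowest at 29.8.

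The ratios of the chains varied widely within both groups. C1qa stood to C1qb at 0.713, 0.750, 1.08 and 0.214 in controls and at 1.22, 3.81, 0.642 and 0.570 in cannabis rats. C1qc stood to C1qb at 0.0571 to 0.400 in controls and 0.108 to 0.507 in cannabis rats. Added together, the chains came to 163 ± 12.3 normalized counts in controls, with a range of 149.7 to 176.8, and to 182 ± 66.7 in cannabis rats, with a range of 119.8 to 265.0. The lowest and the highest of the 8 sums were both in cannabis rats, and no library of the cannabis group lay inside the control range. In control 4 the lowest C1qa (29.8) and the highest C1qb (139) met in 1 sum. In cannabis rat 2 C1qa alone gave 190.0 of 265.0. A difference in spread between the groups was not tested.

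Correlations among the members are given as a description over 8 libraries, which share their size factors. Of the 36 pairs, 17 had a positive Pearson r on the log2 scale, and the median r was -0.07, against 0.04 over all pairs of 9626 symbols with a mean of at least 20, a level that Cx3cr1 and C1qc did not reach. The highest r was that of Aif1 and C1qb, 0.70. C1qa and C1qb had an r of -0.64, C1qb and C1qc -0.64, and C1qa and C1qc 0.58. The mean profile of the 5 members with at least 50 normalized counts (Aif1, Csf1r, C1qb, C1qa and P2ry12) was highest in cannabis rat 1 and lowest in cannabis rat 3. Of 6099 other symbols, its profile was most like those of Tatdn2 (r = 0.96), Spryd3 (0.94), Psmb1 (0.94), Cyp7b1 (0.94) and Ptov1 (0.94). These were picked as the highest of 6099 r values over 8 libraries, so high values come with the selection. Shared expression was not tested.

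The choice of 3′ end was examined next, since WTTS-Seq resolves the sites of a gene. Cx3cr1, Tmem119, C1qa, C1qb and C1qc had 1 site each, Csf1r and Trem2 had 2, Aif1 had 3 and P2ry12 had 8. Of the 20 sites, 0 passed P under 0.05 in limma, against 3.03% of all sites. For the 4 genes with more than 1 site, 0 of 4 leading-site shares passed an exact permutation test at P under 0.05, against 1.59% of the 7108 symbols with enough reads.

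For Aif1 the leading site held 96.3% of reads, for Csf1r 99.0% and for Trem2 93.5%. The leading site of Aif1 repeated the pattern of the total, with 293.9, 342.4, 232.3 and 337.6 normalized counts in controls and 227.3, 204.6, 308.0 and 220.4 in cannabis rats (log2 fold change -0.33, limma P = 0.244, exact permutation P = 0.114). Its share of Aif1 was 97.4% ± 1.93 in controls and 95.3% ± 3.39 in cannabis rats (difference -2.08 percentage points, exact permutation P = 0.343). The shares of the leading Csf1r site were 98.9% ± 0.850 and 98.8% ± 0.788, and those of the leading Trem2 site 91.2% ± 6.43 and 91.9% ± 8.04.

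A minor Aif1 site, site 3 by reads, with 30 reads in all, was the 1 member site that passed P under 0.05 in some tools and not in others. At that P edgeR called 2859 of 98356 sites and DESeq2 1829 of 98082. Reads of this Aif1 site were 1, 0, 1 and 1 in controls and 0, 11, 0 and 16 in cannabis rats, so that nearly all of them came from cannabis rats 2 and 5. In limma its log2 fold change was 0.92 ± 0.83 (SE) with P = 0.280 (exact permutation P = 0.457). The count models, unlike the exact permutation test, gave P = 0.0257 in edgeR and 0.0494 in DESeq2, with an adjusted P of 1.00 in each.

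P2ry12 was the member with the most divided 3′ ends. Its 8 sites held 37.6%, 22.2%, 11.2%, 7.81%, 7.38%, 5.91%, 4.64% and 3.38% of 474 reads. The leading site had 24.9, 23.9, 12.1 and 27.8 normalized counts in controls and 32.3, 18.6, 18.7 and 14.6 in cannabis rats, a log2 fold change of -0.07 (exact permutation P = 0.886). The log2 fold changes of the other 7 sites lay between 0.24 and 0.36 in limma, each within its error. For site 5, with 35 reads and none in control 4, the means were 3.73 in controls and 3.70 in cannabis rats, and edgeR (-0.0451), DESeq2 (-0.0601) and a fit with a replicate block (-0.49) gave a log2 fold change below 0. The second site had 12.4, 8.38, 6.71 and 15.9 in controls and 17.4, 6.64, 15.7 and 17.7 in cannabis rats (log2 fold change 0.36, exact permutation P = 0.371).

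**Figure D4:**
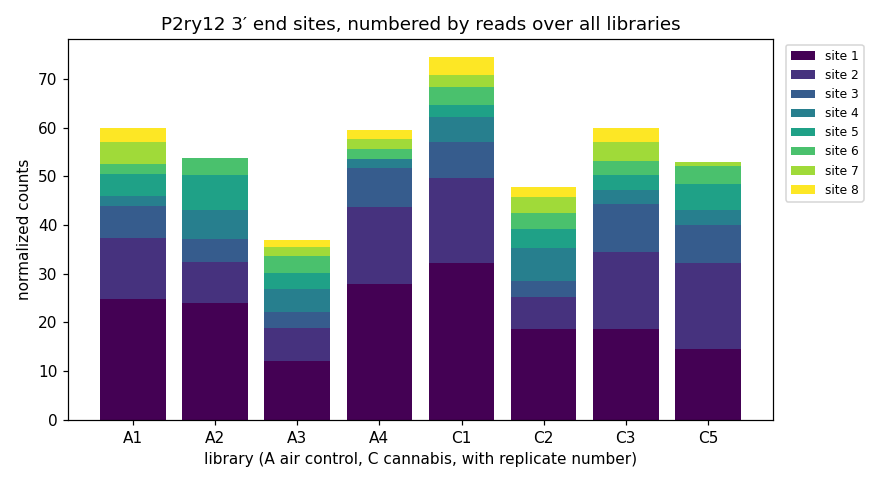
Normalized counts of the 8 P2ry12 sites stacked in each library, numbered by their reads over all libraries, with controls (A) and cannabis rats (C) by replicate number. The bar height is the gene total, from 36.9 in control 3 to 74.5 in cannabis rat 1, and site 1 is the largest segment in all libraries but cannabis rat 5.

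The share of P2ry12 at its leading site was 41.5%, 44.4%, 32.7% and 46.7% in controls and 43.3%, 38.9%, 31.1% and 27.5% in cannabis rats. The mean was 41.3% ± 6.12 in controls and 35.2% ± 7.19 in cannabis rats, a difference of -6.10 percentage points that was within the spread (exact permutation P = 0.229). Cannabis rats 3 and 5 had the lowest shares and control 3 was next. With 30 to 82 P2ry12 reads per library, a share has a wide counting error.

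Other genes of microglia were counted from lists of known genes. Of a list of 41 further microglia genes, 35 were found, and 0 rose and 0 fell at limma P under 0.05, against 2.41% of all symbols called. At that share, a count of 0 in a list of this size says little. The median log2 fold change was 0.11. The sum of the list was 1232 to 1522 normalized counts in controls and 1350 to 1540 in cannabis rats. Its most abundant genes were Vsir, an immune checkpoint receptor, with 203 ± 59.7 and 185 ± 25.9 (exact permutation P = 0.743), and Rnase4, a secreted ribonuclease, with 163 ± 38.0 and 204 ± 47.6 (exact permutation P = 0.229). Ctss, a lysosomal protease, had 141 and 154 and was chosen after its values were seen.

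Of 18 ligands and signalling partners of the members, 16 were found and 0 passed the limma test, with a median log2 fold change of 0.04. Over all symbols 2.41% passed, so a count of 0 in a list of this size says little. Cd47, the signal that holds back phagocytosis, was among the highest, with 391 ± 142 normalized counts in controls and 488 ± 140 in cannabis rats (exact permutation P = 0.286). Of 31 genes of the complement cascade beyond C1q, 22 were found and 0 passed, against the same 2.41%, with a median of -0.03. Clu, an inhibitor of the terminal pathway, had 391 ± 105 and 386 ± 114, and Cd59, which blocks the membrane attack complex, had 305 ± 30.7 and 304 ± 68.8. C3, the central component, had 18.3 and 24.5 (log2 fold change 0.40, exact permutation P = 0.429), and C1r, a protease that C1q activates, 41.6 and 36.3 (log2 fold change -0.22, exact permutation P = 0.400), these 2 also chosen after their values were seen.

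Of 46 genes of microglial activation and of the disease-associated state, 31 were found. The symbols of the cytokines Il1b, Tnf, Il6 and Ccl2 and of Nos2 matched no site. At limma P under 0.05, 0 genes rose and 1 fell, Tlr2, a receptor for bacterial lipoproteins, with means of 9.87 and 3.50 normalized counts (log2 fold change -1.29, limma P = 0.0347, adjusted P = 0.999, exact permutation P = 0.0857). It lay under the level at which genes of this list were to be named and is given after its value was seen. In cannabis rat 5 (0.768) Tlr2 was below the value of 3 reads (2.30). The median of the list was 0.26, and over all symbols 2.41% passed limma P under 0.05. Fth1, the ferritin heavy chain that stores iron, had 2343 ± 387 in controls and 3502 ± 1829 in cannabis rats (exact permutation P = 0.257), and cannabis rat 2 was the highest with 6180.

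**Figure D5:**
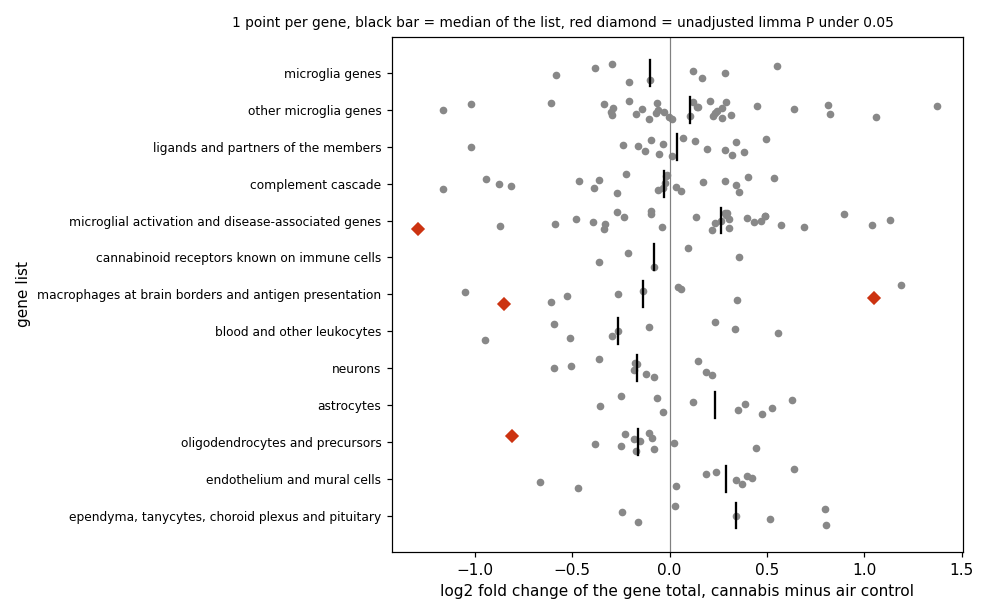
Log2 fold change of gene totals, cannabis minus air control, for the microglia genes and 12 other lists, with 1 point per gene found, a black bar at the median of each list and a red diamond for a gene with unadjusted limma P under 0.05. None of the 9 microglia genes is marked, the marked genes are Tlr2, RT1-Ba, Stab1 and Cspg4, and the lists spread to both sides of 0.

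Genes of other cells that could carry the same transcripts were measured beside the members. Border macrophages share Csf1r, Aif1 and C1q with microglia, and a list of their genes and of antigen presentation genes was counted. The 11 genes found of 16 summed to 135.2 to 205.5 normalized counts in controls and 132 to 167 in cannabis rats, and the highest of them was Cd74, the invariant chain of antigen presentation, with 71.3 ± 19.9 and 72.5 ± 14.2. In this list RT1-Ba, a class II histocompatibility gene, rose from 4.90 to 11.4 (limma P = 0.0342, exact permutation P = 0.0857) and Stab1, a scavenger receptor, fell from 24.8 ± 6.79 to 13.5 ± 4.57 (limma P = 0.0389, exact permutation P = 0.0571), each with an adjusted P of 0.999. RT1-Ba is given after its value was seen, and in control 4 (3.97) it was below the value of 3 reads. Over all symbols, 2.41% passed limma P under 0.05. The part of these genes in the member values was not tested.

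Blood and leukocyte genes were found for 9 of 25, summed to 565 to 686 in controls and 310 to 753 in cannabis rats, and 0 passed the test. Most of that sum was Hba1, a hemoglobin chain. Cd4, which rat macrophages also carry, had 15.8 in controls and 19.9 in cannabis rats (exact permutation P = 0.286). Among the lists for the tissue around microglia, 0 of 11 neuron, 0 of 10 astrocyte, 0 of 10 endothelial and mural, and 0 of 7 ependymal and pituitary genes passed the test, with medians of -0.17, 0.23, 0.29 and 0.34. Of 12 oligodendrocyte genes 1 fell at limma P under 0.05, against 2.41% of all symbols called. It was Cspg4 of oligodendrocyte precursors, from 23.0 to 12.9 (limma P = 0.0442, adjusted P = 0.999, exact permutation P = 0.0571). The list median was -0.16. The overall mean of Cspg4 was under the level for naming, so it too is given after its value was seen.

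THC acts on cannabinoid receptors, which microglia can carry. Of 9 genes of cannabinoid signalling known on immune cells 5 were found, and 0 passed the limma test, against 2.41% of all symbols. Cnr2, the receptor that microglia raise on activation, matched no site. Cnr1, the main cannabinoid receptor of neurons, had 191 to 207 normalized counts in controls and 240 to 291 in cannabis rats (log2 fold change 0.36, limma P = 0.0728, exact permutation P = 0.0286). Mgll, which breaks down 2-arachidonoylglycerol, had 220 to 252 and 159 to 208 (log2 fold change -0.36, limma P = 0.0789, exact permutation P = 0.0286). The groups did not overlap for these 2 genes, as for 1.98% of all symbols, and 0.0286 is the smallest P that 4 against 4 libraries can give. Each of the 9 microglia genes overlapped between the groups.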

How the data were processed

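WTTS-Seq libraries of hypothalamic RNA from 4 cannabis-exposed and 4 air-treated rats were compared. Upstream, the authors cleaned reads (FASTX Toolkit), aligned them to Rnor_6.0 (TMAP), merged neighbouring read ends to sites, required 16 reads per site and took gene symbols from Cuffcompare. The deposited signal values are normalized counts, which are reads divided by a DESeq2 size factor, in 1 file per library without pooling. Reads were recovered from the step of 1 read, and 100% of values were whole within 0.0005 reads. Sites without a symbol (34.6% of sites, 13.9% of reads) entered no gene total. Site positions were not used here.

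The main test was limma 3.58.1 under R 4.3.3 (lmFit, eBayes, trend) with group as the only term, applied to log2(value + 1) of gene totals and of sites, over 18003 symbols and 98356 sites, with Benjamini-Hochberg adjustment. Fold changes on this scale understate the change of low genes. Over all symbols limma called 433 at P under 0.05 (236 higher, 197 lower), edgeR 4.0.16 on recovered reads 454 (169 higher, 285 lower) and DESeq2 1.42.0 392 (127 higher, 265 lower). With adjusted P under 0.1 these tools called 1, 2 and 7. Exact two-sided permutation tests compared 4 with 4 libraries. Leading-site shares needed at least 10 reads in each library. Permutation tests enumerated all 70 splits with numpy 2.4.6 (Python 3.11.15).

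Groups and replicate numbers came from the labels. Replicates are separate rats. All members found were named, and of each other list the genes with P under 0.05 and a mean of at least 20, or else the 2 with the highest mean. Genes outside this rule are marked where they appear. Members and lists were chosen with earlier results of these data known. Alternatives were a pseudocount of 0.5 or 5, a filter at a mean of 10, equal totals, TMM, edgeR, DESeq2, a replicate block and each library left out. Promoters were taken from a RefSeq table (GRCr8), which held 6 of the 10 members. Some genes of the other lists are not reported here by name but are part of the list counts.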

Additional observations from a re-analysis of the deposited data

How the results depend on the processing

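The count of 0 microglia gene totals at P under 0.05 held in 16 of 16 alternatives, and the count of 0 leading-site shares in 10 of 10. Of the 20 sites, 1 passed at P under 0.05 under edgeR and 1 under DESeq2, the minor Aif1 site 3, whose reads lay mainly in cannabis rats 2 and 5. Over all sites, edgeR called 2859 of 98356 and DESeq2 1829 of 98082 at that P. The number of members without overlap ranged from 0 to 1 when each library was left out, with Aif1 separated without cannabis replicate 3.

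Several log2 fold changes turned sign. When each library was left out, the value ranged from -0.23 to 0.0662 for Tmem119, from -0.21 to 0.51 for C1qc, from -0.32 to 0.0115 for Trem2, from -0.35 to 0.0796 for the leading and from -0.80 to 0.0763 for the second Trem2 site, from -0.32 to 0.0771 for P2ry12 site 1 and from -0.33 to 0.68 for P2ry12 site 5. P2ry12 site 5 was at -0.0451 under edgeR and -0.0601 under DESeq2. The cause of these turns was not tested.

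With the replicate number as a block, 0 gene totals and 0 sites passed, and the sign turned for Tmem119 (0.11), P2ry12 site 1 (0.20) and P2ry12 site 5 (-0.49). Over all features, limma called 433 symbols and 2981 sites at P under 0.05, against 243 and 1887 with the block, 250 and 459 with the filter at a mean of 10 (fewer features tested), and 294 to 753 and 2190 to 4070 without single libraries, while DESeq2 called 1829 sites. The mean r of same-numbered rats was -0.09 over 3 pairs (-0.27 to 0.09), and 0.03 over 13 other pairs (-0.43 to 0.54). With 3 pairs this cannot decide whether same-numbered rats belong together. Cx3cr1 and the minor sites were under the mean of 10 and had no value with that filter.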
